A study of Homo sapiens with 8 samples.

Results

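The S100 genes measured here were S100A2, S100A3, S100A4, S100A6, S100A10, S100A11, S100A13, S100A14, S100A16 and S100P, which are 10 of the 60230 genes in the deposited count table. They were chosen by symbol as expressed members of the S100 family, and S100A3 was selected on its log2-fold change, as the highest-ranked increase under compound 6. The choice therefore used the measured contrast of compound 6 with DMSO, and the values of that contrast are given as a description without a test. All 10 passed the filter on low counts, as did 13400 genes in total. S100A2 (4 and 5 counts under DMSO) and S100A3 (15 and 7) needed treated libraries to pass it. A lookup of the 21 human S100 symbols found 2 further genes that passed the filter, S100A1 and S100A9, which were not on the list of 10 and are described separately. Of the remaining 9, S100A5 and S100Z each had 1 count over all libraries and 7 had none.

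The samples were CYP2C19-overexpressing HepG2 cells, a human liver cancer line made to overexpress cytochrome P450 2C19 and kept under blasticidin, a feature shared by the treated and the control cells. Cells were exposed for 24 h to DMSO alone (0.2%) or to compound 4, labelled metylcresol, compound 5, labelled tetrabut, or compound 6, labelled cyclohexil, with 2 libraries for each of the 4 groups. Each compound was given at its own IC50 (the concentration that halved cell viability in a separate assay), so the concentrations differed between compounds. That assay used a longer exposure and another plate format than the RNA samples, and the viability of the cells sequenced is not stated. The authors describe the IC50 values of compounds 4, 5 and 6 as fairly comparable. The compounds are all bisphenol antioxidants related to plastics. Compounds 4 and 6 share a methylene bridge and ring methyl groups and differ in carrying tert-butyl or cyclohexyl groups, whereas compound 5 has an ethylidene bridge and tert-butyl groups but no ring methyl groups. Library totals ranged from 9791659 to 17814595 counts, so that 3 counts corresponded to between 0.171 and 0.307 CPM, here the count scaled to a common library size with TMM factors, which adjust for composition. The labels give the replicates as day 1 and day 2 and do not say whether they were separate cultures, so the p-values measure only the spread between these samples. Hepatocyte transcripts were abundant in every library, with ALB (albumin) between 14369 and 20660 CPM, and CYP2C19 was detected at 16.4 to 52.8 CPM.

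S100 proteins are small calcium sensors found in vertebrates. Each carries a pair of EF-hands, the helix-loop-helix fold that holds a calcium ion, and most act as dimers that open a binding surface for a partner such as an annexin, a cytoskeletal protein or p53 when calcium rises. Several are also released from cells and are bound there by the receptor RAGE, encoded by AGER. Most of the genes lie in a cluster on the long arm of chromosome 1 called the epidermal differentiation complex, and several are raised in epithelial tumours, including those of the liver.

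Of the 10 genes, 9 lie on the minus strand of chromosome 1 and S100P lies on the plus strand of chromosome 4 (GRCh38). The stretch from S100A6 to S100A13 holds 7 of them within 96.8 kb. Promoter windows from RefSeq (GRCh38.p14), running from 250 bases before to 50 bases after an annotated start, matched all 10 genes in 14 windows. The windows of 4 genes are shown, chosen with the data below known. S100A3 and S100A2 had the lowest levels under DMSO and the widest changes. S100A14 had a change of similar size under compounds 4 and 6, and S100A4 overlaps S100A3 but followed another pattern. S100A10 and S100A13, which changed least, are not shown, so no link between letters and changes is read from these windows. Capitals mark matches, on either strand, to the AP-1 letters TGANTCA or to the letters TGACNNNGC of the antioxidant response element (ARE), 2 motifs whose letters can overlap.
S100A3 (chr1:153549209-153549508, minus strand): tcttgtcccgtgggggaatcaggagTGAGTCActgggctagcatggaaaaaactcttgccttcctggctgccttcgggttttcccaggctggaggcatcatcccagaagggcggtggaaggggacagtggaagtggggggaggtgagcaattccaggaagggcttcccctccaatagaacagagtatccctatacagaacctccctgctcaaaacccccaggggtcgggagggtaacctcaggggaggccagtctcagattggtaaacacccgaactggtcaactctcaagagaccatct
S100A2 (chr1:153565795-153566094, minus strand): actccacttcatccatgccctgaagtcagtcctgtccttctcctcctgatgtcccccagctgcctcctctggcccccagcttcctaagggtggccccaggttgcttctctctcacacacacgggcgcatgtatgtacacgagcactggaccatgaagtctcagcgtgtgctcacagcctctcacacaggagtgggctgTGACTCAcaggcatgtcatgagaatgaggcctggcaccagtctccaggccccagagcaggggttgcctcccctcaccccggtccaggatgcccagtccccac
S100A14 (chr1:153616276-153616575, minus strand): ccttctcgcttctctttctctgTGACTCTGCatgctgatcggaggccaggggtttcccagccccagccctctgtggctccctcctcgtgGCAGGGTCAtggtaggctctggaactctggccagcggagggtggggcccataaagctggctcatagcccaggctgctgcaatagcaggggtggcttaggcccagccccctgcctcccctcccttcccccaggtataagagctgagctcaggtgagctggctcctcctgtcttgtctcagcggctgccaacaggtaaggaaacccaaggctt
S100A4 (chr1:153545757-153546056, minus strand): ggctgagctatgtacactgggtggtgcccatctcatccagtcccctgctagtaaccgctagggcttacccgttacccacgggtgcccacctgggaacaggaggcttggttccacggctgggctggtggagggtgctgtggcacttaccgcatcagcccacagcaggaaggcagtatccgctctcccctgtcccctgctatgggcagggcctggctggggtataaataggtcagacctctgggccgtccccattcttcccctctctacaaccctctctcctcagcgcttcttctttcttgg
The S100A3 window holds TGAGTCA with its first base at -225 from the start, and the S100A2 window holds TGACTCA at -52. These were the only AP-1 matches among the 10 genes, and 7.71% of all 35116 windows hold one. The other S100A2 window, not shown, holds no AP-1 match. The S100A14 window holds the ARE letters at -228 as TGACTCTGC and at -161 as GCAGGGTCA, and S100A13 and S100A16 have a match as well, against 13.3% of all windows. The TEAD letters GGAATG were found for S100A16 alone (14% of all windows), and the SP1 letters GGGCGG for 6 genes (45% of all windows). Counted per window as in these shares, AP-1 and ARE matches lay in 2 and 3 of the 14 windows, and TEAD and SP1 matches in 2 and 6. The S100A4 and S100P windows hold none of these letters. A match describes letters only, and binding was not measured.

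Per kilobase of exon, S100P was the most abundant S100 transcript under DMSO, at 99.2 CPM ± 20.4 per kilobase (SD, n = 2). S100P, first found in placenta, binds ezrin and RAGE. Next came S100A1, S100A10, S100A11, S100A16, S100A9 and S100A6, with means falling from 20.9 to 11.2 CPM per kilobase. Within this series each gene overlapped the next in its 2 DMSO values, so the order of neighbours is not settled. S100A1 and S100A10 lay above S100A16, S100A9 and S100A6 without overlap. S100A13 (8.59) and S100A4 (8.22) overlapped each other and lay below S100A6 without overlap. S100A14 (2.22) and S100A3 (1.11) again overlapped, and S100A2 was lowest at 0.264, from 4 and 5 counts. These levels divide by the exon bases of all annotated transcripts of a gene together, which can exceed the transcript expressed. The order between genes depends on that length, also where values do not overlap. In mean CPM without it, S100P (127) was again highest and S100A2 (0.414) lowest. There S100A13 (19.0) lay above S100A11 (12.9) and S100A6 (10.9).

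**Figure D1:**
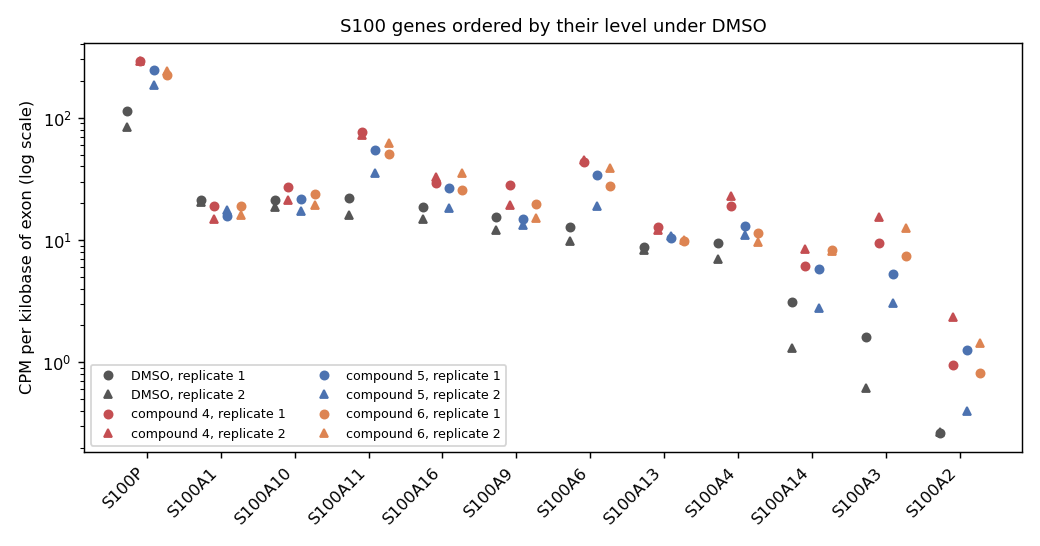
Levels of 12 tested S100 genes in CPM per kilobase of exon (vertical axis, log scale), with genes ordered along the horizontal axis by their mean under DMSO; each point is 1 library (circle, replicate 1; triangle, replicate 2; grey, DMSO; red, blue and orange, compounds 4, 5 and 6). S100P stood highest in every group and S100A2 lowest, and the genes with low DMSO levels spread most between groups.

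Summed over the 10 genes, the S100 transcripts took 242 CPM ± 43.0 under DMSO (SD, n = 2 in each group), 628 ± 8.52 under compound 4, 446 ± 95.3 under compound 5 and 506 ± 39.7 under compound 6. S100P made up between 51.3% and 62.3% of this sum in each library. The treated libraries (378 to 634 CPM) all lay above both DMSO libraries (212 and 272 CPM).

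Compound 4 raised most of the S100 genes. S100A3, S100A4, S100A6, S100A11, S100A13, S100A14, S100A16 and S100P were higher than under DMSO, by between 1.44-fold and 11.5-fold, while S100A2 missed the threshold and S100A10 differed little. These 8 of 10 genes stand against 5.6% of all tested genes called higher in this contrast (edgeR quasi-likelihood test, adjusted p under 0.05 over all 13400 genes). None was called lower by edgeR at an adjusted or an unadjusted p under 0.05 (3.91% and 12.4% of all genes), nor by DESeq2. At an unadjusted p under 0.05, 9 were higher, against 15.1% of all genes. The estimates were above 0 for all 10 genes and for 51.4% of all genes, and in 9 of the 10 both compound 4 libraries lay above both DMSO libraries, against 30.4% of all genes. The median log2-fold change was 1.65 over the 10 genes and 0.01 over all genes. This contrast and that of compound 5 used the same DMSO libraries as the contrast in which S100A3 was picked, so they are not independent of the choice. S100A2 and S100A3 needed treated libraries to pass the filter, which favoured higher estimates for them in both contrasts. In bulk RNA, more transcript per cell and more cells carrying it cannot be told apart.

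S100A3, a cysteine-rich and zinc-binding protein best known from the hair cuticle, was at 1.54 and 0.586 CPM in the DMSO libraries (15 and 7 counts). Under compound 4 it was at 9.01 and 14.8 CPM (96 and 194 counts). The groups were far apart, although the few DMSO counts make the size of the change imprecise. The log2-fold change was 3.53 ± 0.49 (SE, edgeR adjusted p = 0.005), an 11.5-fold increase. S100A2, an epithelial family member that binds p53, showed a similar separation at a still lower level. It was at 0.41 and 0.419 CPM under DMSO and at 1.5 and 3.65 CPM under compound 4, a log2-fold change of 2.63 ± 0.72 that missed the threshold (edgeR adjusted p = 0.051). DESeq2 and a fit of the 4 libraries compared called it, each with an adjusted p of 0.023, and without compound 4 replicate 2 the log2-fold change was 1.83 (edgeR adjusted p = 0.3).

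The next group in size consisted of S100A6, S100A11, S100A14, S100P and S100A4. S100A6, known as calcyclin, was at 12.3 and 9.55 CPM under DMSO and at 42.3 and 44.1 under compound 4. S100A11, known as calgizzarin, was at 15 and 10.9 CPM under DMSO and at 51.9 and 49.1 under compound 4. Both rose about equally and with replicates close together: the log2-fold change was 1.99 ± 0.28 for S100A6 (edgeR adjusted p = 0.005) and 1.97 ± 0.23 for S100A11 (edgeR adjusted p = 0.0031). S100P went from 145 and 108 CPM to 370 and 372 CPM, a log2-fold change of 1.55 ± 0.17 (edgeR adjusted p = 0.0022). In absolute terms this was the largest gain of the 10, since S100P started from the highest level. S100A14, an epithelial member with a degenerate EF-hand, went from 4.0 and 1.67 CPM to 7.88 and 10.9 CPM, a log2-fold change of 1.76 ± 0.42 (edgeR adjusted p = 0.032). S100A4, which binds non-muscle myosin and is associated with cell motility and metastasis, went from 9.74 and 7.12 CPM to 19.5 and 23.7 CPM (1.37 ± 0.20, edgeR adjusted p = 0.006).

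The smallest changes were those of S100A16, S100A13 and S100A10. S100A16, a widely expressed member, was at 31.6 and 25.3 CPM under DMSO and at 49.8 and 55.7 CPM under compound 4, a log2-fold change of 0.90 ± 0.21 (edgeR adjusted p = 0.029). S100A13, which takes part in the non-classical release of FGF1, was at 19.6 and 18.5 CPM and then at 28.1 and 26.9 CPM (0.53 ± 0.12, edgeR adjusted p = 0.026). Both calls were lost without any 1 of the 4 libraries compared, and that of S100A13 also by DESeq2. S100A10, also called p11, is the partner of annexin A2 and has lost the ability to bind calcium. Its values of 32.9 and 29.1 CPM under DMSO overlapped those of 41.8 and 32.8 CPM under compound 4, with a log2-fold change of 0.27 and a 95% interval from -0.12 to 0.65.

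**Figure D2:**
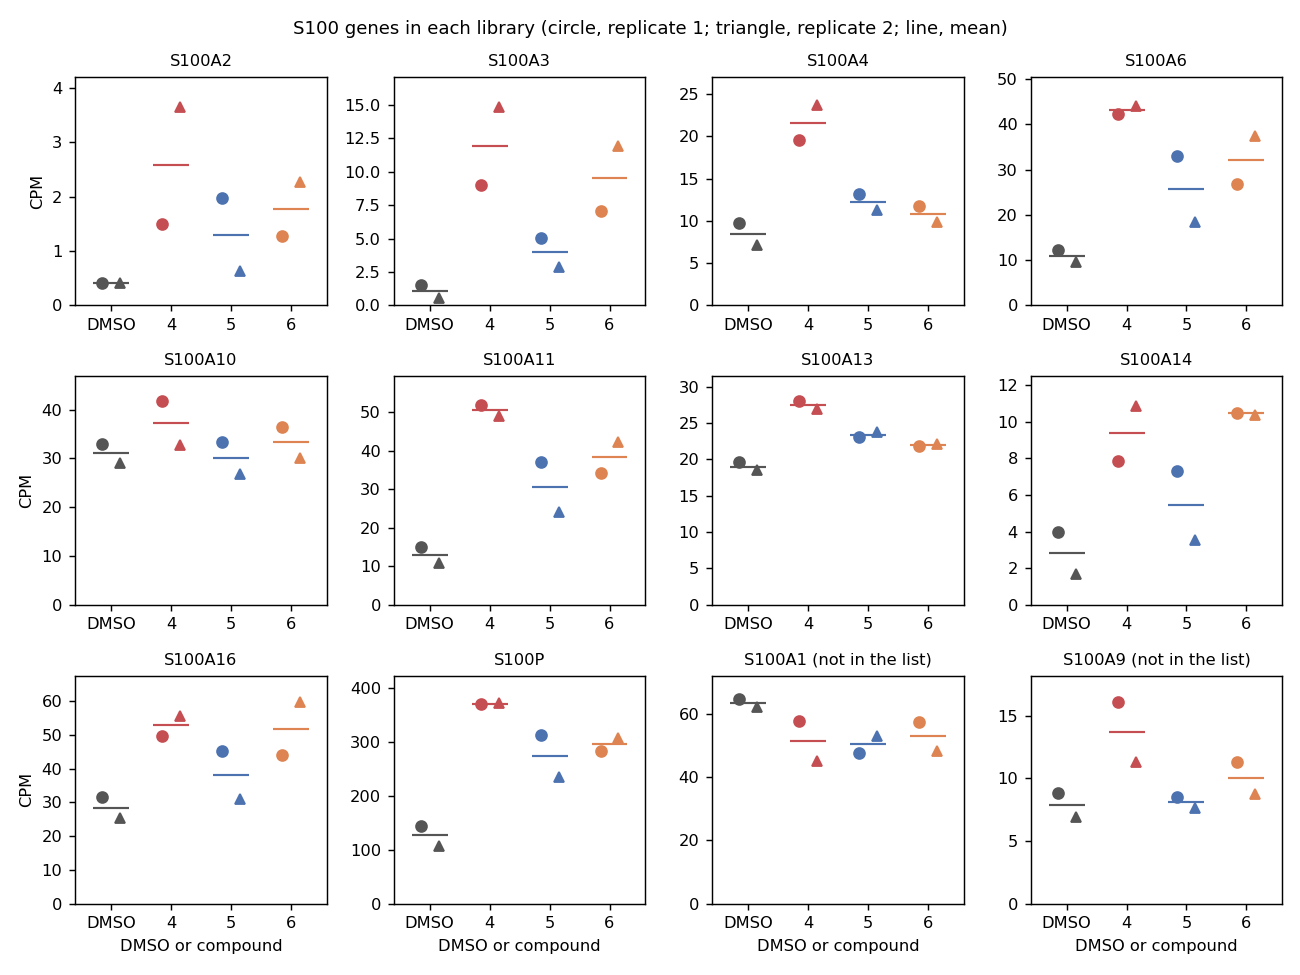
CPM in each library for the 10 S100 genes and for S100A1 and S100A9 (one panel per gene, vertical axis from 0; horizontal axis, DMSO or compound number; circle, replicate 1; triangle, replicate 2; line, mean of 2). S100A3, S100A6, S100A11 and S100P lie above both DMSO libraries in all treated libraries, S100A10 overlaps DMSO under each compound, and S100A1 lies below DMSO in all treated libraries.

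Several calls under compound 4 were lost when a library was left out. Without DMSO replicate 2, S100P was the 1 gene of 10 still called, and without compound 4 replicate 2 there were 4; the directions stayed positive for all 10 genes in each case. DMSO replicate 1 was above DMSO replicate 2 for 9 of the 10 genes, S100A2 being the exception. Taken within days, all 10 genes were higher under compound 4 on both days. The median log2 difference was 1.06 on day 1 and 1.94 on day 2. A small constant was added to each CPM there, which shrinks the differences of low-level genes. No share over all genes stands beside the counts by replicate or day, so nothing is read from them.

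Compound 5 raised 3 of the 10 genes, S100A6, S100A11 and S100P, by between 2.17-fold and 2.36-fold; the background of this contrast was 5.35% of all genes called higher. S100A6 was at 33.0 and 18.4 CPM (log2-fold change 1.23 ± 0.28, edgeR adjusted p = 0.03) and S100A11 at 37.1 and 24.0 CPM (1.24 ± 0.23, edgeR adjusted p = 0.015). S100P was at 314 and 236 CPM (1.11 ± 0.17, edgeR adjusted p = 0.0077). All 3 were above both DMSO libraries in both replicates, but replicate 1 was the higher of the pair by a wide margin. Replicate 1 was also the higher for 9 of the 10 genes under this compound, a count without a share over all genes. Without DMSO replicate 2 none of the 3 was called, and without DMSO replicate 1 or compound 5 replicate 1 only 1 was. The median log2-fold change over the 10 genes was 1.03, against 0.00 over all genes.

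The other 7 genes did not pass the test under compound 5. S100A3 was at 5.02 and 2.9 CPM, above both DMSO libraries, with a log2-fold change of 1.91 ± 0.53 (edgeR adjusted p = 0.055); DESeq2 called it. S100A2, at 1.98 and 0.626 CPM, had a log2-fold change of 1.56 ± 0.77. Both genes again had positive estimates with wide errors. S100A14 (7.33 and 3.53 CPM) and S100A16 (45.1 and 31.1 CPM) overlapped DMSO, with log2-fold changes of 0.94 ± 0.43 and 0.42 ± 0.21. S100A4 (13.2 and 11.3 CPM, 0.54 ± 0.20) and S100A13 (23.1 and 23.8 CPM, 0.30 ± 0.12) did not overlap DMSO but gave edgeR adjusted p of 0.12 and 0.13. S100A10 (33.4 and 26.7 CPM) had a log2-fold change of -0.04. None of the 10 was called lower by edgeR at an adjusted or an unadjusted p under 0.05 (2.95% and 12.8% of all genes), nor by DESeq2, and 6 were higher at an unadjusted p under 0.05 (15.6% of all genes). The estimates were above 0 for 9 of the 10, against 50.4% of all genes. In 7 of the 10, both libraries lay above both DMSO libraries, which 31% of all genes also did. Within days, 9 of the 10 were higher under compound 5 on both days, S100A10 being the exception. No share over all genes stands beside this count either, and nothing is read from it.

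**Figure D3:**
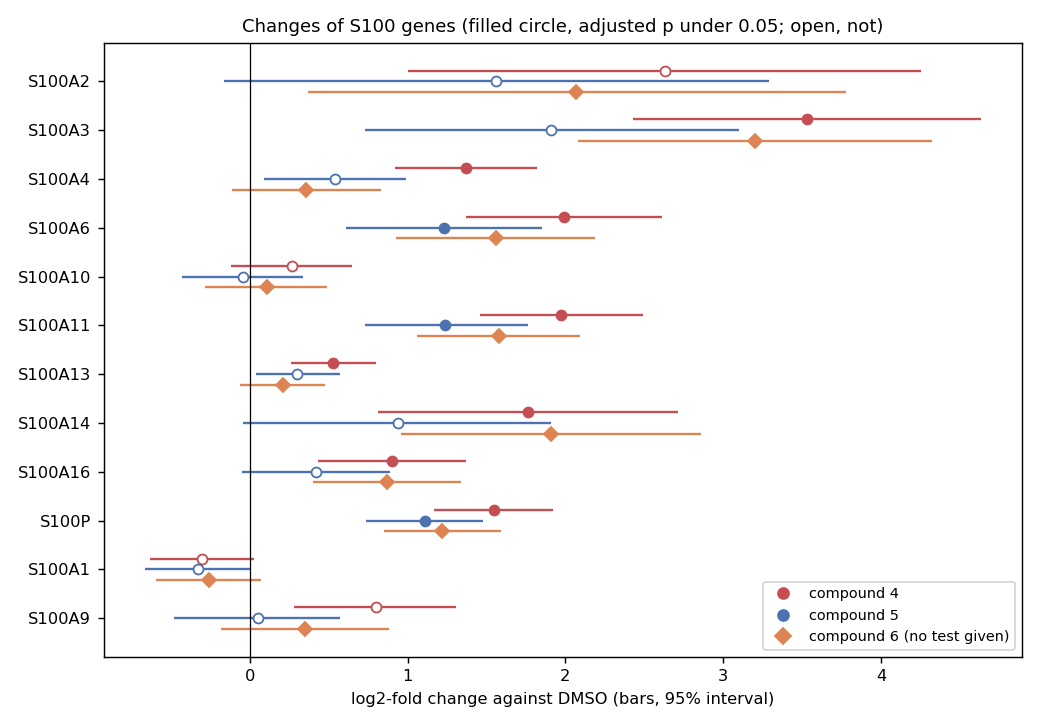
Log2-fold change against DMSO (horizontal axis) for 12 S100 genes, with 95% intervals from edgeR as bars; red, blue and orange mark compounds 4, 5 and 6, filled circles an adjusted p under 0.05, open circles none, and diamonds the contrast given without a test. The estimates for S100A3 run from 1.91 to 3.53, those for S100A10 from -0.04 to 0.27, and those for S100A1 lie below 0.

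Compounds 4 and 5 were then compared directly. The levels in this contrast come from none of the libraries in which S100A3 was picked, but the estimate of spread was shared over all 8 libraries. With only the 4 libraries compared, again none of the 10 genes was called. All 10 genes had higher estimates under compound 4, which 49.1% of all tested genes also had, and in 8 of the 10 both compound 4 libraries lay above both compound 5 libraries, against 22.7% of all genes. None of the differences passed the edgeR threshold after adjustment, where 0.187% of all genes were called higher. At an unadjusted p under 0.05 there were 6 of 10, S100A3, S100A4, S100A6, S100A11, S100A16 and S100P, against 8.62% of all genes, and DESeq2 called 1, S100A3. None was lower at an adjusted or an unadjusted p under 0.05 (0.127% and 7.63% of all genes). For S100A3 the 2 compounds were separated by 9.01 and 14.8 CPM against 5.02 and 2.9 CPM, a log2 difference of 1.62 with a 95% interval from 0.74 to 2.5 (edgeR adjusted p = 0.12). S100A4 gave 0.83 (0.41 to 1.25; edgeR adjusted p = 0.1) and S100A6 gave 0.76 (0.19 to 1.33; edgeR adjusted p = 0.2). For S100P the log2 difference was 0.43 (0.07 to 0.8). S100A10, S100A13, S100A14 and S100A2 had intervals that included 0, the widest being that of S100A2 from -0.27 to 2.39, so a difference of either sign or none was not distinguished for these. The concentrations of the 2 compounds differed, though the authors describe the IC50 values as fairly comparable. The bridge and the ring methyl groups differed as well.

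**Figure D4:**
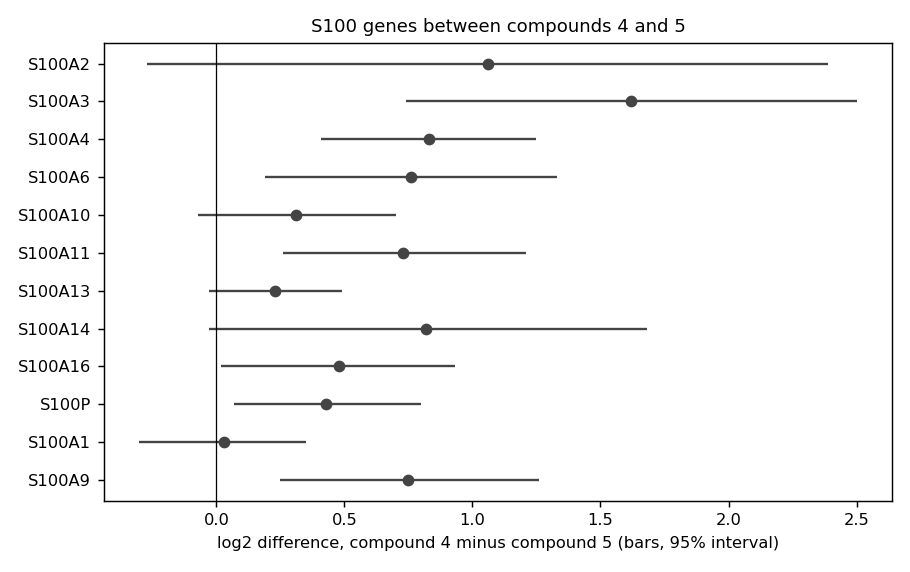
Log2 difference between compound 4 and compound 5 (horizontal axis, compound 4 minus compound 5) for 12 S100 genes; points are edgeR estimates and bars 95% intervals. All points lie to the right of 0, from 0.03 for S100A1 to 1.62 for S100A3, and none passed the threshold after adjustment over 13400 genes.

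Under compound 6, described without a test, S100A3 was at 7.06 and 11.9 CPM (72 and 126 counts), a log2-fold change of 3.20 ± 0.50 (SE). It ranked first by log2-fold change among the 66 called increases whose mean reached 1 CPM, and 38th among all tested genes. S100A14 was at 10.5 and 10.4 CPM (log2-fold change 1.91), S100A2 at 1.28 and 2.27 (2.07), S100A11 at 34.3 and 42.4 (1.58) and S100A6 at 26.7 and 37.4 (1.56). S100P was at 284 and 308 CPM (1.22) and S100A16 at 44 and 59.7 CPM (0.87). By contrast, S100A4 at 11.7 and 9.85 CPM (0.36 ± 0.21), S100A13 at 21.9 and 22.1 CPM (0.21) and S100A10 at 36.5 and 30.1 CPM (0.11) stayed near their DMSO values. The count of genes called higher was 4 of 10 where 0.493% of all genes were, and 2 with the day as a block; since this contrast was used in the choice, nothing is read from either count.

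The values for compound 6 can be set beside those of the other compounds without a test. The S100A14 and S100A16 levels under compound 6 overlapped those under compound 4, with log2 differences (compound 4 minus compound 6) of -0.15 (95% interval -0.98 to 0.68) and 0.03 (-0.43 to 0.48). For S100A4 the 2 compounds did not overlap, and the log2 difference was 1.01 (0.57 to 1.45), the highest among the 10 genes. For S100A3 it was 0.33 (-0.51 to 1.16), with overlapping libraries. Compound 6 minus compound 5 gave 1.29 (0.39 to 2.18) for S100A3 and 0.98 (0.12 to 1.83) for S100A14, but -0.18 (-0.62 to 0.27) for S100A4. These pairs involve the libraries used in the choice and were not tested. Compounds 4 and 6 were each given at their own IC50, values that the authors describe as fairly comparable. They also differ in the tert-butyl and cyclohexyl groups.

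S100A3 and S100A4 overlap on the genome. S100A3 lies at chr1:153547329-153549372 and S100A4 at chr1:153543613-153550136, both on the minus strand. In the GENCODE 29 annotation, 1 of the 6 S100A4 transcripts starts upstream of S100A3 and carries the whole S100A3 gene within an intron. The other 5 start 1443 bases or more beyond the end of S100A3. The genes share 0 exon bases in this annotation, so no exon base is assigned to both. Whether unspliced RNA of the spanning S100A4 transcript added reads over S100A3 exons was not tested. The number of S100A3 counts per S100A4 count was 0.158 and 0.0824 under DMSO. It was 0.462 and 0.622 under compound 4, 0.381 and 0.258 under compound 5, and 0.605 and 1.21 under compound 6. The ratio was above both DMSO values in all 6 treated libraries, and in 1 compound 6 library S100A3 had more counts than S100A4. With the counts of both genes summed, the change against DMSO on the log2 scale came to 1.83 for compound 4, 0.77 for compound 5 and 1.11 for compound 6.

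**Figure D5:**
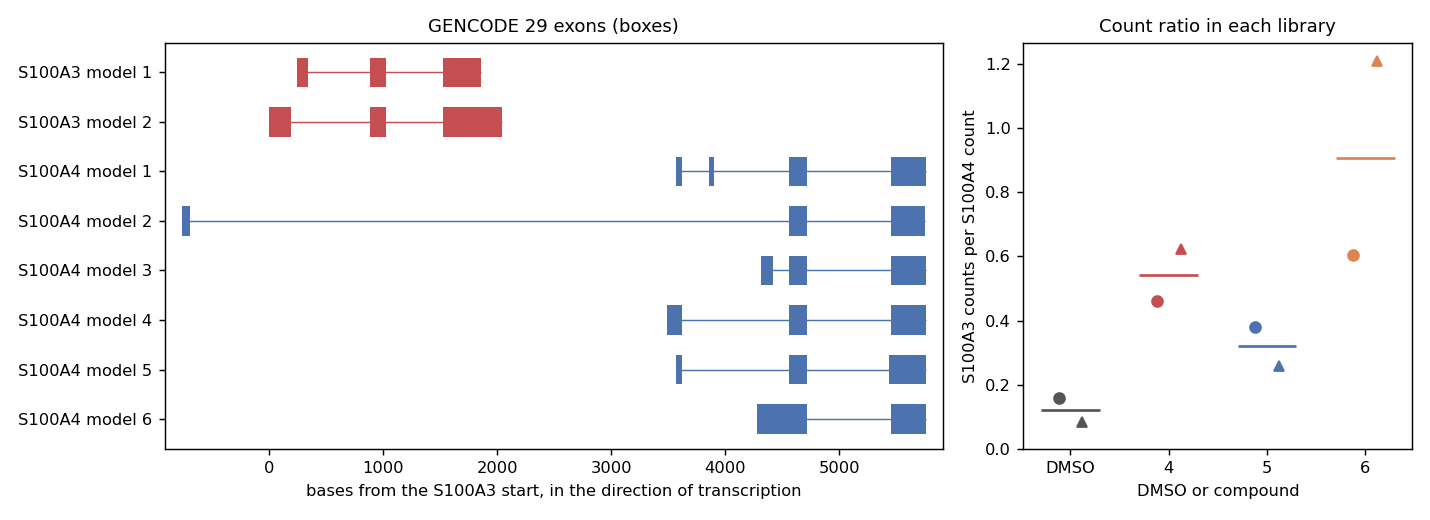
Left, exons (boxes) of the 2 S100A3 and 6 S100A4 transcript models in GENCODE 29 against the distance in bases from the S100A3 start in the direction of transcription; 1 S100A4 model spans S100A3 in an intron. Right, S100A3 counts per S100A4 count in each library (circle, replicate 1; triangle, replicate 2; line, mean of 2; vertical axis from 0), lowest under DMSO at 0.158 and 0.0824 and highest in a compound 6 library at 1.21.

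Other transcripts of the chromosome 1 stretch were scarcely present. Between S100A10 and S100A1 (positions 151982915 to 153632039) the table lists 73 genes outside the S100 family, 0 of which passed the filter, and the highest count of any of them in a library was 1. S100A5, between S100A6 and S100A4, had 1 count in all, and S100A8 had none. The fused S100 genes of the same region (FLG, FLG2, HRNR, RPTN, TCHH, TCHHL1 and CRNN), whose products build the outer skin, had 0 counts. S100A13 shares 235 exon bases with S100A1 on the opposite strand and 536 with ENSG00000271853 on the same strand, and S100A6 shares 23 with ENSG00000238279 on the opposite strand. Reads from these bases may be split between the genes, and the sources used here do not say how strand was used in counting.

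S100A1 and S100A9, the tested S100 genes outside the list of 10, had other patterns. S100A1, best known from heart muscle, was at 64.5 and 62.1 CPM under DMSO. Compound 4 libraries had 57.7 and 45 CPM, compound 5 libraries 47.5 and 53, and compound 6 libraries 57.4 and 48.3. All treated libraries lay below both DMSO libraries, but the log2-fold changes of -0.30 ± 0.15 for compound 4 and -0.33 ± 0.15 for compound 5 did not pass the test (edgeR adjusted p = 0.21 and 0.17). S100A9, a subunit of the leukocyte protein calprotectin, measured 8.81 and 6.95 CPM in DMSO and 16.1 and 11.3 CPM under compound 4 (log2-fold change 0.80 ± 0.23, edgeR adjusted p = 0.059; 0.022 with the day as a block). Under compound 5 it was at 8.56 and 7.68 CPM (0.05 ± 0.24), within the DMSO range. Its usual partner S100A8 had 0 counts in all libraries. Counted over all 12 tested S100 genes, the calls were the same 8 under compound 4 and the same 3 under compound 5, and the medians fell to 1.46 and 0.74.

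Over the 8 libraries, the log2 CPM of S100A3 tracked that of S100A16, S100A11 and S100A6 most closely among the S100 genes (Pearson r of 0.969, 0.967 and 0.967), while r was 0.75 with S100A4, 0.436 with S100A10 and -0.72 with S100A1. Among the 12728 genes whose mean reached 1 CPM, the 5 most like S100A3 were MAPK13 (0.993), MICAL1 (0.99), CD22 (0.99), ESAM (0.987) and AXL (0.984). S100A16 was 24th and S100A4 1234th in that order. Within the family, S100A6, S100A11 and S100P were close to each other (r of 0.98 to 0.99). These correlations are descriptions, since the points share 4 treatments and the DMSO libraries. A small constant was added to each CPM before the log was taken.

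The known partners of S100 proteins gave 1 call by edgeR over the 3 tested contrasts. Of 17 listed partners 15 were tested, ANXA1 and FGF1 having failed the filter. Under compound 4, edgeR called none of the 15 (1 was higher and 1 lower at an unadjusted p under 0.05, against 15.1% and 12.4% of all genes, and DESeq2 called none), with a median log2-fold change of 0.11. ANXA2, the annexin that S100A10 binds, was at 129 and 104 CPM under DMSO and at 162 and 145 CPM under compound 4 (0.40 ± 0.14, edgeR adjusted p = 0.1). The calcyclin-binding protein gene CACYBP was at 72.4 and 93.3 CPM under DMSO and at 77.7 and 71.9 CPM under compound 4. MYH9, the myosin bound by S100A4, ranged from 585 to 755 CPM over all libraries. Under compound 5 only ANXA5, an annexin that binds exposed phosphatidylserine, passed the test, going from 219 and 225 CPM to 329 and 297 CPM (0.49 ± 0.10, edgeR adjusted p = 0.023). That call was lost without either DMSO library or compound 5 replicate 1, and the median over the partners was 0.03. Over all genes, 5.35% were called higher by edgeR under compound 5. At an unadjusted p under 0.05, 2 partners were higher and 1 lower, against 15.6% and 12.8% of all genes. DESeq2 also called AHNAK, a large scaffold protein bound by S100A10 with annexin A2, lower under compound 5 (edgeR log2-fold change -0.58 ± 0.22, adjusted p = 0.13). Between compounds 4 and 5 edgeR called none, with 2 higher and 2 lower at an unadjusted p under 0.05 (8.62% and 7.63% of all genes), and DESeq2 called ANXA2 higher and ANXA6 lower under compound 4. The edgeR log2 differences of these genes were 0.54 ± 0.14 and -0.59 ± 0.14.

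Receptors and effectors for released S100 proteins were not called either. AGER, which encodes RAGE, was at 0.494 to 2.18 CPM, BSG (basigin) at 846 to 1282 CPM and DIAPH1, a formin that binds the tail of RAGE, at 192 to 234 CPM, while TLR4 failed the filter. Under compound 4, 2 of these 3 were lower at an unadjusted p under 0.05 (12.4% of all genes), none was under compound 5 (12.8%), and DESeq2 called none in both contrasts. In the plasminogen system, to which the S100A10 and annexin A2 complex belongs, PLG (plasminogen) and PLAUR (the urokinase receptor) did not pass the test under compound 4 or compound 5, and PLAT and PLAU failed the filter.

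Of 16 other EF-hand genes 14 were tested, and 2 passed the test under compound 4, 1 higher and 1 lower, where 5.6% and 3.91% of all genes were called. CALM3, which encodes the calcium sensor calmodulin, fell from 421 and 458 CPM to 290 and 233 CPM (log2-fold change -0.75 ± 0.16, edgeR adjusted p = 0.022). CAPN2, the catalytic subunit of the protease calpain-2, rose from 24.3 and 24.1 CPM to 34.1 and 47.4 CPM (0.75 ± 0.20, edgeR adjusted p = 0.041). Both calls were lost without either DMSO library or compound 4 replicate 2. The median of the EF-hand list was 0.00 under compound 4 and 0.04 under compound 5. Under compound 5 edgeR called none, with 1 higher and 2 lower at an unadjusted p under 0.05 (15.6% and 12.8% of all genes), and DESeq2 called CALM3 lower and CALU higher.

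Markers of other cell types differed between groups as well. The 5 leukocyte markers summed to 20.5 to 25.4 CPM under DMSO, 40.1 to 40.7 under compound 4, 20.7 to 26.8 under compound 5 and 30.5 to 32.1 under compound 6. Nearly all of this was CD68, and PTPRC, LST1 and CD3E had 0 counts. The 5 fibroblast markers summed to 5.02 to 9.22, 23.3 to 25.4, 7.63 to 11.4 and 14.3 to 14.6 CPM in the same order, nearly all PDGFRB, and COL1A2, DCN and LUM had 0 counts. The sum of the 8 hepatocyte markers was lower under treatment than under DMSO (50464 to 54482 CPM). It was 34865 to 42272 CPM under compound 4, 43178 to 44480 under compound 5 and 37548 to 43663 under compound 6. ALB, AFP, APOA1 and TF lay below DMSO in every treated library. HNF4A lay above DMSO (314 and 298 CPM) under compounds 4 (324 and 327) and 6 (326 and 318). TTR under these compounds, SERPINA1 under compound 4 and APOB under compound 6 overlapped DMSO. CYP2C19 itself was at 16.4 to 27.7 CPM under DMSO, 31.4 to 44.3 under compound 4, 38.0 to 52.8 under compound 5 and 21.2 to 23.9 under compound 6. The part of the hepatocyte, CD68, PDGFRB and CYP2C19 levels in the S100 results was not tested. Endothelial markers summed to at most 2.08 CPM, and the 4 cholangiocyte markers to 427 to 503 CPM, with overlapping ranges of the sum in all groups and KRT7 at 1 count or fewer. KRT19 alone lay above both DMSO libraries (130 and 112 CPM) in all 6 treated libraries (148 to 215 CPM), and its part in the S100 results was not tested either.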

How the data were processed

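RNA was sequenced from 8 libraries, 2 for each of DMSO and compounds 4, 5 and 6, on poly(A)-selected, strand-specific libraries. The deposited table holds counts per gene that were not normalized: the authors estimated transcript abundance with Salmon 1.5.0 on GRCh38 after quality control with FastQC 0.12.0, per the labels, and summarized it to genes with tximeta, rounded to whole numbers. DMSO replicate 1 and compound 4 replicate 1 were each merged from 2 sequencing runs. The authors also fitted DESeq2 1.38.3. Transcript length offsets and shrinkage were not used here, so a change in isoform use can alter a gene's count. Symbols were found for 60089 of 60230 genes in a separate list of gene names. Positions were found for 57972 in GENCODE 29, an annotation of the same build but another release than the authors used.

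Genes were kept with the edgeR 4.0.16 filter at a minimum count of 10, scaled by TMM and fitted with the quasi-likelihood test in R 4.3.3 over all 8 libraries, with Benjamini-Hochberg adjustment over 13400 genes and a threshold of 0.05. The standard error is the size of the log2-fold change over the root of F, and 95% intervals use the moderated degrees of freedom. The fit was tested on simulated data. DESeq2 1.42.0, other scaling and filters, the replicate block, fits on the 4 samples compared, summed S100A3 and S100A4 counts and leaving out each library were alternatives. With 2 libraries against 2, a permutation test cannot pass 0.05, and none was run. At totals of 9791659 to 17814595 counts, precision was lowest for S100A2 and S100A3.

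The members and lists were chosen with earlier results of these data known. Every one of the 10 members is named, every gene of the fixed lists past the threshold in a tested contrast (except 1 gene, not reported here), other list members whose values were set beside the S100 genes they bind (ANXA2, CACYBP, MYH9), that DESeq2 alone called (AHNAK, ANXA6, CALU) or that complete a list, chosen after their values were seen, and the 5 genes most correlated with S100A3. The labels give the replicate number as a day, so replicates pair across groups; the correlation of same-numbered deviations over 13400 genes lay between -0.16 and 0.30 in the 6 pairs of groups. Promoter windows came from RefSeq tables and were searched for letters on both strands.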

Additional observations from a re-analysis of the deposited data

How the results depend on the processing

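Over the 10 listed S100 genes and the 3 tested contrasts, 398 of 443 alternative values kept their direction and side of the threshold, 25 lost and 18 gained a call, and 2 changed sign. Many of these alternatives could change little, such as leaving out a library of a group not compared or summing S100A3 and S100A4 for the other genes. Between compounds 4 and 5, keeping the side meant staying uncalled. The share kept is therefore not a measure of stability. S100P under compound 4 was called in all 15 alternatives (highest adjusted p 0.034). The block on replicate number, which is the day, changed the number of called genes for compound 4 against compound 5 from 42 to 128 over all genes, that of S100 genes higher under compound 6 from 4 to 2, and the call of S100A9 under compound 4 (log2-fold change 0.79). It changed no other call among the S100 genes in the tested contrasts, and gave 1699 genes in all under compound 4 and 1429 under compound 5. Without a filter on low counts, the genes past the threshold numbered 2383 instead of 1275 under compound 4, 2431 instead of 1112 under compound 5, 1355 instead of 77 under compound 6 and 750 between compounds 4 and 5, and S100 genes called higher numbered 6 under compound 5, 6 between compounds 4 and 5, and 7 under compound 6. DESeq2 called 210 genes between compounds 4 and 5, 1 of them among the 10, and 547 under compound 6; its size factors in edgeR gave 47. At least 10 counts in every sample gave 65 and 198 in these contrasts, and only the 4 samples compared gave 10 and 1023. The cause was not tested. Leaving out each library gave 1 to 9 S100 genes higher under compound 4 (all genes 43 to 1681), 0 to 4 under compound 5 (46 to 1814), 0 to 0 between compounds 4 and 5 (9 to 25), and 0 to 6 under compound 6 (2 to 432). The sign reversed only for small values, and the reversals of S100A9 and S100A1 are outside the count above. S100A10 under compound 5 ran from -0.22 to 0.12 over the left-out libraries, with 0.04 without DMSO replicate 1 and 0.12 without compound 5 replicate 2, and under compound 6 from -0.05 (without compound 6 replicate 1) to 0.24. S100A9 under compound 5 ran from -0.12 (without DMSO replicate 2) to 0.21, with -0.04 without compound 5 replicate 1. S100A1 between compounds 4 and 5 ran from -0.17 (without compound 4 replicate 1) to 0.19, with -0.04 without compound 5 replicate 1. S100A2 and S100A3 failed the filter of 10 counts in every sample and have no value there.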
